A study of Mus musculus with 2 samples.

Results

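Caseins are the main proteins of milk, and their genes stand side by side on mouse chromosome 5. The 5 members, Csn1s1, Csn2, Csn1s2a, Csn1s2b and Csn3, were the genes of the deposited count table with these symbols, 5 of 55487 genes in all. Each symbol matched 1 gene. RNA was measured in single medullary thymic epithelial cells (mTECs) of wild-type female C57BL/6J mice aged 4 weeks. The mice were injected intraperitoneally on 7 consecutive days with 15 mg/kg of the polyamine spermidine dissolved in buffered saline (PBS), or with PBS only. After depletion of CD45+ cells on beads, mTEChi and post-Aire mTEClo were sorted, so that every sample is a mixture of both, in a ratio not given in the sources used here. Hashtag antibodies marked the samples, of which the labels list 4, 2 with spermidine (hashtags HT2 and HT3) and 2 with PBS (HT4 and HT5). They were run in 1 pool in droplets, with 3' counting of unique molecular identifiers (UMIs). Hashtags HT6 and HT7, for which the labels list no sample, were also found in the pool. Nothing in the labels ties the 2 replicates of a treatment to separate mice, and each p-value therefore reflects no more than the spread between hashed samples, which may be technical.

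In the mammary gland, caseins form the micelles that carry calcium in milk. The calcium-sensitive caseins (Csn1s1, Csn2 and the Csn1s2 genes) fill the micelle, and kappa-casein (Csn3) coats its surface. Their transcription in that gland depends on prolactin, its receptor and the kinase JAK2, which activate the factor STAT5, together with the glucocorticoid receptor, ELF5 and C/EBP-beta. In the thymus, caseins are known as tissue antigens: mTECs, many of them under the regulator Aire, transcribe genes of other organs and present the products to developing T cells.

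On GRCm38, Csn1s1 lies at chr5:87666208-87682578 on the plus strand, Csn2 at chr5:87692624-87699630 on the minus strand, Csn1s2a at chr5:87774567-87788797, Csn1s2b at chr5:87808082-87824426 and Csn3 at chr5:87925579-87932665, the last 3 on the plus strand. The cluster spans 266.5 kb. Csn3 overlaps the antisense gene 1700066N21Rik, and use of strand in counting is not stated, so reads of the pair cannot be told apart with certainty. The promoters of 3 members, from 250 bases before to 50 after the start that RefSeq gives on GRCm38.p6, are shown because the RefSeq promoter table held these 3 and each window holds the palindromic motif TTCNNNGAA, the core to which STAT5 binds. Capitals mark the motif, and sequences run 5' to 3' on the strand of the gene, Csn1s1 from chr5:87665958-87666257 (plus), Csn2 from chr5:87699376-87699675 (minus) and Csn1s2a from chr5:87774200-87774499 (plus).
Csn1s1: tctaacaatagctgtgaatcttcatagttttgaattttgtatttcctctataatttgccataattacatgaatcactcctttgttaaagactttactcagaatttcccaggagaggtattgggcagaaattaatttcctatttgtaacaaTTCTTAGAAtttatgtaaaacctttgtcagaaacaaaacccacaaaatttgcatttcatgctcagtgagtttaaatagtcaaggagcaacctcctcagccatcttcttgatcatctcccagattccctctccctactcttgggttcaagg
Csn2: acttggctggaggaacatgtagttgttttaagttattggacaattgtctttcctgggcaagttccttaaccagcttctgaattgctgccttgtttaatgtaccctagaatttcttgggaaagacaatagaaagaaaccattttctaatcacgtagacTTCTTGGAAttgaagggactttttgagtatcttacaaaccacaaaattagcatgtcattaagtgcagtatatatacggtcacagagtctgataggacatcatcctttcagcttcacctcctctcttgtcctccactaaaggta
Csn1s2a: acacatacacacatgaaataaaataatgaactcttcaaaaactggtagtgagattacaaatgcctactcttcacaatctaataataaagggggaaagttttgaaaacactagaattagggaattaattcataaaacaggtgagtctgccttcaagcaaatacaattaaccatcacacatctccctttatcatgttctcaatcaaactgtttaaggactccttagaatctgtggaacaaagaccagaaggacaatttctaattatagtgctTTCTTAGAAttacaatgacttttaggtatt
Positions count bases from the start base, with -1 just before it and 1 just after it. The motif lay at -100 to -92 in Csn1s1, at -93 to -85 in Csn2 and at 20 to 28 in Csn1s2a. In Csn2 and Csn1s2a the RefSeq start differs from that of the GENCODE gene above. Counted from the GENCODE start, the motif lies upstream in Csn1s2a and inside the gene in Csn2. Searched on both strands, which are alike for a palindrome, it stood in 2726 of 32851 promoter windows of the same length (8.30%). These matches describe the letters and do not show binding in mTECs.

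The counts covered 12139 barcodes, all of which the gene and hashtag libraries shared, and 8534 passed the limits on UMIs, genes and mitochondrial share. Of the kept cells, 1374 and 1007 were assigned to spermidine replicates 1 and 2, and 1335 and 993 to PBS replicates 1 and 2. They held 25673749 and 18230040 UMIs with spermidine and 23172408 and 17668782 with PBS, and the median per cell was between 15736 and 17365 in the 4 samples. Another assignment, with 6 hashtags, called 897 of the 4709 assigned cells doublets, so results are given with it where it moves them. All kept cells, assigned or not, were clustered without the casein genes, so clusters and marker folds include cells of unknown treatment. The Aire-stage class, 480 and 331 cells with spermidine and 271 and 276 with PBS, joins cluster 0 and cluster 1. In it 12 of 14 Aire-stage markers were over 2-fold higher than in the other cells, and their summed level in UMIs per 1000000 (CPM) was 39995 and 40614 with spermidine and 40609 and 42069 with PBS. Cluster 0 had 3 Aire-stage markers among its 10 leading genes (Klk1b11, Fabp9 and Klk1b26). Cluster 1 had none, and no marker of another list either. By mean fold it ranked highest for the fibroblast list, whose summed level in the class was only 88.0 to 117 CPM. The cortical epithelial list was close behind, with 4 of its 8 markers over 2-fold higher in the class than in other cells and a summed level of 1714 and 1944 CPM with spermidine and 1707 and 1988 CPM with PBS. Cluster 1 was put in the class by hand for its levels of Aire, Cd74, H2-Aa, Fezf2 and Cd40. The full Aire-stage list was neither first nor second for it by mean fold. The fibroblast and cortical sums above are of the whole class, not of cluster 1 alone. The 14 Aire-stage markers include the genes that admitted cluster 1, so their fold in the class is no independent check. CPM here scale the UMIs of a gene to the sum of all gene UMIs of the same cells. A 3' UMI count does not grow with gene length, so levels were not divided by length.

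Csn2, which encodes beta-casein, was by far the most widely detected member. In the kept cells it had 84832 UMIs in 4874 cells (57.1%). The other members were found in few cells: Csn1s1 in 231 (2.71%), Csn1s2a in 226 (2.65%), Csn3 in 196 (2.30%) and Csn1s2b in 112 (1.31%), with 911, 2518, 847 and 262 UMIs. Csn1s2a thus had fewer cells than Csn1s1 but more UMIs. In the 3605 barcodes that were not kept, 29.5% had a Csn2 UMI, and for each other member the share was between 0.139% and 0.499%.

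Csn2 was highest in microfold-like cells, the thymic counterpart of the epithelial cells that sample antigen in the gut, and next in the Aire-stage class. In microfold-like cells it stood at 2184 and 2321 CPM with spermidine and 1554 and 1809 CPM with PBS. In the Aire-stage class it stood at 1344 and 1100 CPM with spermidine and 1214 and 1127 CPM with PBS, so that the lowest microfold-like sample was above the highest Aire-stage sample. Over the 4 samples the means were 1967 ± 350 CPM in microfold-like cells and 1196 ± 110 CPM in the Aire-stage class (SD, n = 4 each). All 10 microfold markers were over 2-fold higher in the microfold-like class than in other cells. Aire was at 121 CPM in it. Within the Aire-stage class, cluster 1 had 1491 and 1357 CPM of Csn2 with spermidine and 1715 and 1429 CPM with PBS. Cluster 0 had 1082 and 723 CPM with spermidine and 784 and 860 CPM with PBS, below cluster 1 in every sample. Aire moved with it: 981 and 1015 CPM in cluster 1 and 442 and 453 CPM in cluster 0 with spermidine, and 978 and 1024 CPM and 427 and 470 CPM with PBS.

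Further down the order stood unnamed cluster 13, led by genes of no list, with 644 ± 89.5 CPM of Csn2 (SD, n = 4; as few as 14 cells in a sample) and with Aire at 1082 CPM. Enterocyte- or hepatocyte-like cells followed with 295 ± 185 CPM, and dividing transit-amplifying-like cells with 189 ± 32.5 CPM (SD, n = 4 each), neighbours whose samples overlapped. Classes with few cells have no firm place in this order: ciliated-like cells had 169 and 555 CPM with spermidine and 218 and 48.3 CPM with PBS, from 7 to 22 cells in a sample, and myeloid- or dendritic-like cells averaged 154 ± 143 CPM (SD, n = 4). Transit-amplifying-like cells had Aire at 810 CPM, no less than the Aire-stage class (788 and 787 CPM with spermidine, 682 and 730 CPM with PBS), yet every one of their Csn2 values (220 and 214 CPM with spermidine, 161 and 161 CPM with PBS) lay below every Aire-stage value. Keratinocyte-, neuroendocrine-, immature mTEC- and tuft-like cells had 105 ± 53.4, 84.1 ± 28.6, 40.2 ± 14.7 and 35.9 ± 8.01 CPM (SD, n = 4 each), and neighbours among them overlapped. Thymocyte-like cells, which should not transcribe Csn2, had 44.7 and 14.6 CPM with spermidine and 155 and 202 CPM with PBS, from 12 to 48 cells in a sample.

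**Figure D1:**
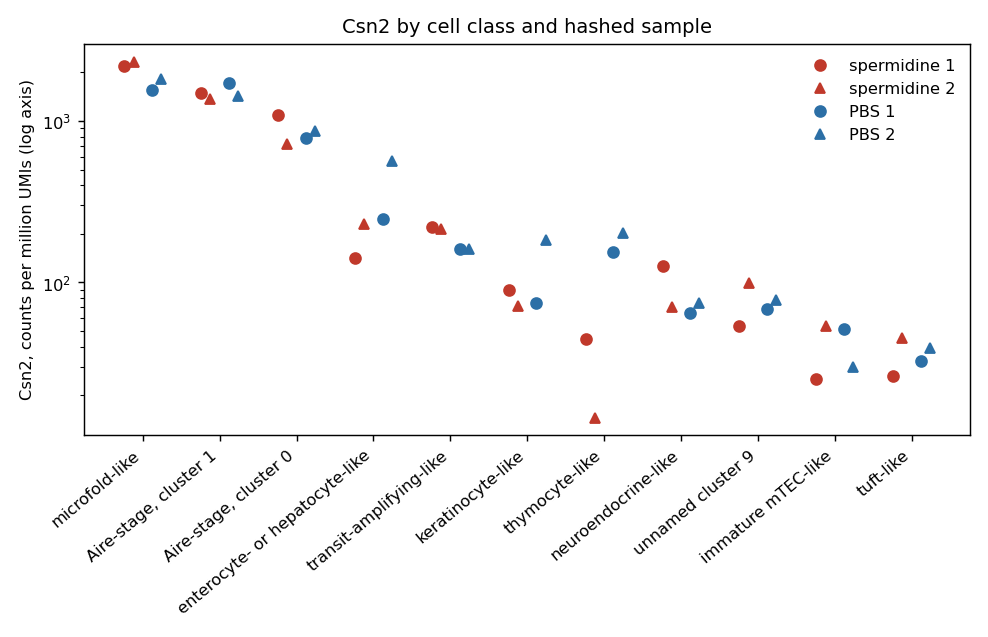
Csn2 in CPM (log axis) for the cell classes named on the axis, with a point for each of the 4 hashed samples (red, spermidine; blue, PBS; circle, replicate 1; triangle, replicate 2). Microfold-like cells and cluster 1 of the Aire-stage class stand highest, and tuft-like cells, at 26.5 to 45.1, stand at the level of immature mTEC-like cells.

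At equal depth cluster 1 had a higher share of cells with a Csn2 UMI than microfold-like cells. Its CPM were lower than theirs in both spermidine samples and PBS replicate 2, and higher in PBS replicate 1. After each cell was thinned to 5000 UMIs, 89.4% of microfold-like cells and 84.5% of Aire-stage cells had a Csn2 UMI, 92.7% in cluster 1 and 75.8% in cluster 0. The share was 80.8% in unnamed cluster 13, 47.3% in enterocyte- or hepatocyte-like cells and 39.3% in transit-amplifying-like cells. In thymocyte-like cells, taken as the background, it was 16.9%. RNA free in the droplets was not measured. Thymocyte-like cells also held Aire, at 14.9 and 29.2 CPM with spermidine and 187 and 160 CPM with PBS, from 2 to 6 cells in a sample. The source of this Aire was not tested, so the 16.9% is not a firm background. The shares in tuft-like (12.9%) and immature mTEC-like cells (13.7%) were no higher than this background, and those in neuroendocrine-like (18.0%) and keratinocyte-like cells (19.6%) were within a few points of it. Csn2 was not evenly low in tuft-like cells: 8 of them had 10 or more UMIs and held 24.8% of the Csn2 UMIs of the class. Without thinning, 92.9% of Aire-stage cells (median 20705 UMIs) and 18.7% of thymocyte-like cells (median 5965 UMIs) had a Csn2 UMI.

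Single cells differed widely in Csn2. In the Aire-stage class 1261 of 1358 cells held 34101 Csn2 UMIs, with a median of 16 in cells that had any and a highest cell of 716. Cells with 100 or more UMIs numbered 44, and 191 cells held 50.1% of the UMIs. In microfold-like cells 216 of 234 held a Csn2 UMI, with a median of 18 and a highest cell of 408. Csn2 was also higher in Aire-stage cells with an Aire UMI. At 5000 UMIs the 943 cells with an Aire UMI had 1368 CPM of Csn2 and the 279 cells without one 728 CPM. The difference had the same direction in all 4 samples, with 1536 and 1233 CPM in cells with Aire and 766 and 591 CPM in cells without it in the spermidine samples, and 1233 and 1331 CPM against 830 and 710 CPM in the PBS samples. A cell with no Aire UMI at this depth may still express Aire. The split was not made within clusters. At 5000 UMIs 90.8% of cluster 1 and 62.6% of cluster 0 cells had an Aire UMI, so the cells with and without Aire differ in cluster makeup. The part of this makeup in the Csn2 difference was not tested.

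The 4 rarer members were each carried by few Aire-stage cells, over the 4 samples most of them in cluster 1. The cells of cluster 1 were deeper, with a median of 23788.5 UMIs against 17839 in cluster 0. At 5000 UMIs the shares in cluster 1 and cluster 0 were 5.23% and 1.52% for Csn1s1, and 3.65% and 2.03% for Csn3. For Csn1s2b they were 13 of 631 and 0 of 591 cells. Csn1s1, alpha-s1-casein, stood in the Aire-stage class at 12.2 and 25.7 CPM with spermidine and 29.2 and 11.6 CPM with PBS, and the replicates of each treatment differed by over 2-fold. It was found in 82 of 1358 cells (6.04%), 57 of them in cluster 1. No Csn1s1 UMI was seen in 234 microfold-like cells, which allows a share of cells with a UMI of up to 1.28%, nor in 321 immature mTEC-like cells, which allows up to 0.935%. Such floors are 3 counts of the total, cover counting error only and do not limit the share of cells that express the gene. Tuft-like cells had Csn1s1 at 5.14 and 3.73 CPM with spermidine and 3.23 and 3.84 CPM with PBS. It was found in 32 of 1088 of them (2.94%), 21 of these in cluster 2, and no cell had more than 8 UMIs. Thymocyte-like cells had 1 in 123. At 5000 UMIs the share was 1.70% in tuft-like cells and 2.58% in their cluster 2, against 1 of 77 thymocyte-like cells (1.30%) and none of 199 microfold-like or 270 immature mTEC-like cells. With 1 thymocyte-like cell the background of Csn1s1 is not well set.

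Csn1s2a, which encodes an alpha-s2-like casein, stood in the Aire-stage class at 70.5 and 69.0 CPM with spermidine and 34.3 and 26.3 CPM with PBS. Its 1531 UMIs came from 104 of 1358 cells (7.66%), and 73 of these cells and 1382 of the UMIs were in cluster 1, where Csn1s2a is also among the 10 leading genes although it took no part in the clustering. Cluster 1 had 104 and 98.0 CPM with spermidine and 63.2 and 52.1 CPM with PBS. Cluster 0 had 10.7 and 26.3 CPM with spermidine and 9.53 and 3.47 CPM with PBS. The gene was high in single cells: those with 10 or more UMIs held 86.9% of all its UMIs in the class, and 10 cells held 50.4%. In PBS replicate 1 a single cell with 110 UMIs held 60.8% of the sample's 181. At 5000 UMIs 6.97% of cluster 1 cells and 1.86% of cluster 0 cells had a UMI, and 2 of 77 thymocyte-like cells (2.60%) did. The share was 0.300% in tuft-like, 0.310% in transit-amplifying-like and 0.370% in immature mTEC-like cells, so the background of Csn1s2a, with 2 thymocyte-like cells, is not well set either.

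Csn1s2b, the neighbouring alpha-s2-like gene, was the rarest member. It stood in the Aire-stage class at 5.19 and 2.86 CPM with spermidine and 4.93 and 4.23 CPM with PBS. Of its 55 cells in the class, 48 were in cluster 1, and 36 had a single UMI. In spermidine replicate 2 transit-amplifying-like cells had 4.54 CPM, from 1 cell with 12 UMIs, and cluster 1 had 4.04 CPM. In each other sample cluster 1 was above transit-amplifying-like cells. Thymocyte-like cells had none in 123, which allows a share of cells with a UMI of up to 2.44%.

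Csn3, kappa-casein, had the highest level of the rarer members in microfold-like cells, where Csn1s2a and Csn1s2b were found in 2 of 234 cells each and Csn1s1 in none. In the Aire-stage class it stood at 10.4 and 9.77 CPM with spermidine and 6.07 and 8.47 CPM with PBS, from 80 of 1358 cells (5.89%), 54 of them in cluster 1. PBS replicate 1 had the reverse order, with 9 cells in cluster 0 (7.06 CPM) and 3 in cluster 1 (4.92 CPM). In microfold-like cells Csn3 stood at 106 and 124 CPM with spermidine and 12.7 and 37.6 CPM with PBS, above the Aire-stage value in each of the 4 samples. These levels rested on 19 of 234 cells (8.12%) with 242 UMIs. A single cell held 43.0% and 52.7% of them in the spermidine samples, and 71.4% and 57.1% in the PBS samples. At 5000 UMIs 14 of 199 microfold-like cells (7.04%) and 2.86% of Aire-stage cells had a Csn3 UMI. No Csn3 UMI was found in 123 thymocyte-like cells, and tuft-like cells had 6 in 1088.

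**Figure D2:**
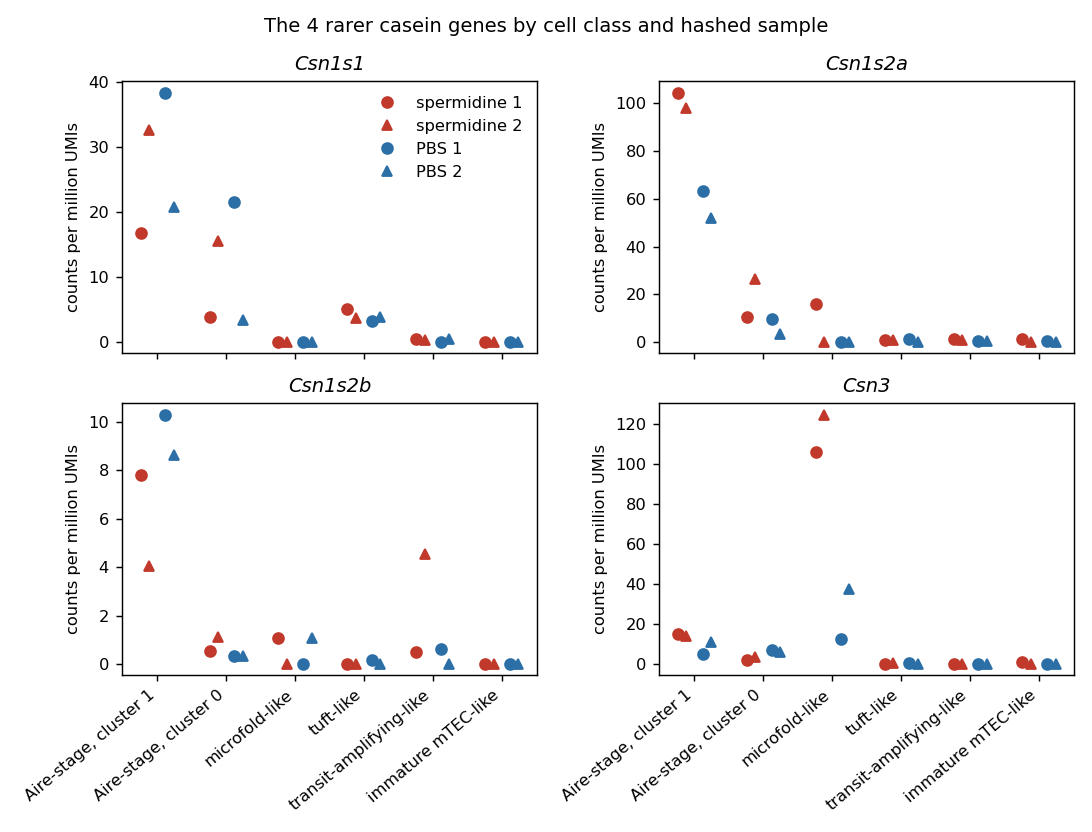
The 4 rarer casein genes in CPM (linear axes from 0) in 6 cell classes, with a point for each hashed sample, colours and marks as in the Csn2 plot. With the 4 samples pooled, Csn1s1, Csn1s2a and Csn1s2b are highest in cluster 1 of the Aire-stage class, and Csn3 in microfold-like cells. There the spermidine samples of Csn3 stand at 106 and 124 and the PBS samples at 12.7 and 37.6.

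The rarer caseins were found in the same Aire-stage cells more often than their separate shares give. The expected number multiplies the shares of cells with each gene within each sample and sums over samples. Csn1s1 and Csn1s2a shared 24 cells against 6.29 expected, a ratio of 3.82. Csn1s2b and Csn3 shared 13 cells against 3.28 (3.96), Csn1s1 and Csn1s2b 12 against 3.28 (3.65), and Csn1s2a and Csn1s2b 15 against 4.25 (3.53). The 2 other pairs of Csn3 were lower, with 14 against 6.22 for Csn1s2a (2.25) and 10 against 4.78 for Csn1s1 (2.09). Csn2, present in nearly all of these cells, had ratios of 1.04 to 1.08 with the other members and can hardly show more. All 4 rarer members were present together in 2 cells.

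**Figure D3:**
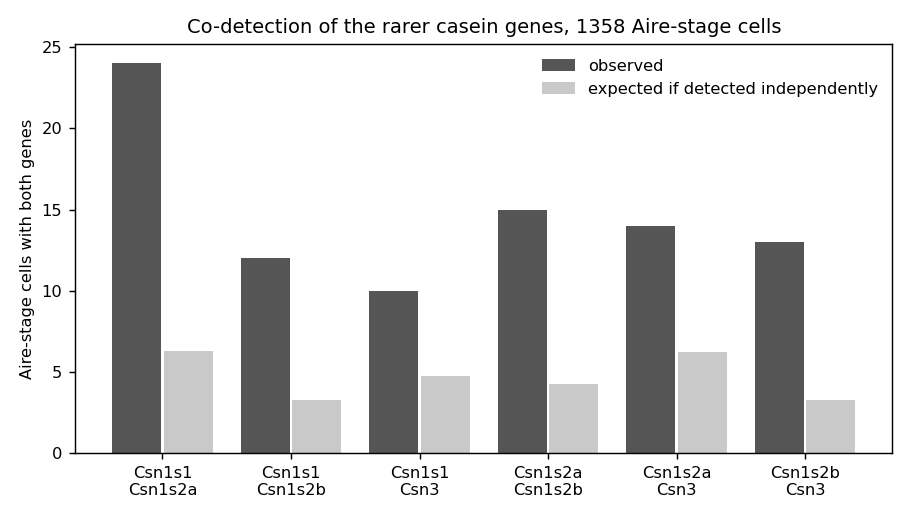
Number of Aire-stage cells (of 1358, unthinned) in which each pair of rarer casein genes was detected together, observed (dark bars) beside the number expected from the separate shares in each sample (light bars). The observed bar is the higher in all 6 pairs, from 10 against 4.78 cells (Csn1s1 and Csn3) to 24 against 6.29 (Csn1s1 and Csn1s2a).

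Summed over the 6 pairs, 88 joint detections stood against 28.1 expected (3.13). In this sum a cell counts once for each pair of rarer caseins that it holds. The sample ratios were 3.0 and 3.66 with spermidine and 2.13 and 3.68 with PBS. Depth differs between cells and moves such counts, so the sum was also taken at 5000 UMIs. There 21 joint detections stood against 5.98 expected (3.51), with sample ratios of 3.68 and 4.16 with spermidine and 2.95 and 2.25 with PBS. Over the 4 samples the 2 clusters differ in all members, and with the expected number computed within each cluster the unthinned ratio was 2.62 (88 against 33.5). Of genes on other chromosomes that were found in 20 to 200 Aire-stage cells, 9425 in all, the median unthinned ratio with 1 rarer casein was between 1.13 and 1.23, and 9.88% (with Csn1s2a) to 15.6% (with Csn1s2b) had a ratio of 2 or more. Of those still detected at 5000 UMIs, 18.7% (with Csn1s2b) to 23.5% (with Csn1s1) had such a ratio. The 90th percentile at that depth was 2.84 (with Csn1s2a) to 4.01 (with Csn1s2b), so a ratio near 3 of a single pair was not rare there. No such background was taken for the sum over the 6 pairs. Cells are not replicates and the casein genes share their libraries, so these ratios are descriptions with no p-value.

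A cell with a rarer casein also had more Csn2. At 5000 UMIs Aire-stage cells with at least 1 rarer casein had 2422 CPM of Csn2, and those with none 1085 CPM. In the spermidine samples the values were 2786 against 1235 CPM and 1966 against 980 CPM, and in the PBS samples 2275 against 991 CPM and 2582 against 1024 CPM. Each of the 4 samples had the difference in the same direction. It was present within cluster 1 (2579 against 1374 CPM) and within cluster 0 (1879 against 810 CPM). Of the 1358 cells, 245 (18.0%) had at least 1 rarer casein and 66 had 2 or more, against 25.9 expected. By sample, 26 and 21 cells with spermidine and 11 and 8 with PBS had 2 or more.

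**Figure D4:**
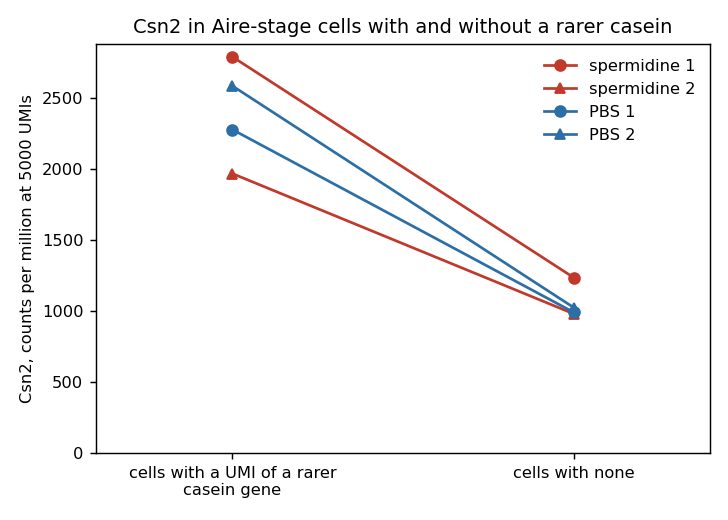
Csn2 in CPM, from cells thinned to 5000 UMIs, in Aire-stage cells with a UMI of a rarer casein gene (left) and in cells with none (right), with a line for each hashed sample. Every line falls to the right, from 1966 to 2786 in cells with a rarer casein against 980 to 1235 in cells with none.

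Genes that lie between and beside the caseins but encode no casein were found with them as well. Of 48 genes of the count table that start within 500 kb of the cluster's ends, 19 had at least 20 UMIs in kept cells, and 7 were found in 20 or more Aire-stage cells. Of these 7, 6 had an observed over expected ratio of 2 or more with any rarer casein, and their median was 2.39. Of the 9425 genes on other chromosomes, 4.13% had such a ratio and the median was 1.22. All ratios of neighbours used unthinned counts, with the expected number taken within samples but not within clusters. The part of depth and of the clusters in them was not tested. Odam, an enamel organ protein whose gene lies between Csn1s2b and Csn3, stood highest of the 7: 31 of its 45 Aire-stage cells also had a rarer casein, against 8.15 expected (3.80). Amtn, amelotin, another enamel protein, had 39 of 91 cells against 16.3 (2.39), although it starts 443.4 kb beyond Csn3. Sult1e1, an oestrogen sulfotransferase, had a ratio of 2.75, Smr3a, a salivary gland protein, 2.53, the long noncoding RNA BC037156, inside the cluster, 2.11, and the sulfotransferase Sult1b1 2.04. Sult1d1, the one below 2, had 1.33. The 12 genes in fewer Aire-stage cells ranged from 1.37 (Gm7714) to 4.43 (Prr27, inside the cluster), with Gm42794 at 4.18, Gm28434 at 3.94, BC051076 at 3.79, Ugt2a3 at 3.68, Cabs1 at 3.49, 1700066N21Rik at 3.37, 2310003L06Rik at 3.01, Smr2 at 2.58, Prol1 at 2.20 and Gm42164 at 1.80. Gm42794, 1700066N21Rik and BC051076 are annotated as antisense, and without stated strand their reads and those of the opposite gene cannot be told apart.

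**Figure D5:**
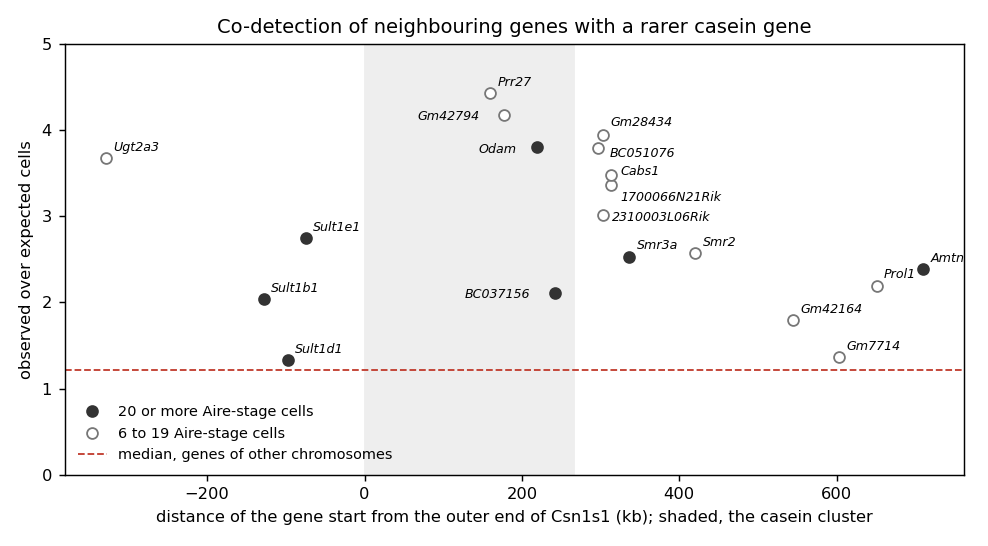
Ratio of observed to expected Aire-stage cells (unthinned) in which a neighbouring gene was detected together with a rarer casein. The horizontal axis is the distance of its start from the outer end of Csn1s1 in kb. The grey band is the casein cluster and the dashed line, at 1.22, the median of genes on other chromosomes, and 6 of the 7 genes in 20 or more cells (filled points) are at 2.04 to 3.80.

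These neighbours did not all share the caseins' classes. In the Aire-stage class Odam was at 4.81 and 6.01 CPM with spermidine and 6.26 and 6.26 CPM with PBS, and at 0.319 CPM over all kept microfold-like cells, assigned or not. BC037156 was at 129 and 74.1 CPM with spermidine and 108 and 21.9 CPM with PBS, and at 75.2 CPM over those microfold-like cells, where Csn3, the next casein along, was also high. Sult1b1 was higher in those microfold-like cells (33.8 CPM) than in the Aire-stage class (1.90 CPM). Csn3 and Odam were found together in 18 cells against 2.65 expected (6.80).

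The genes most like each casein over the 1358 Aire-stage cells were taken by Pearson's r of log-scaled counts among 19569 genes. All cells share 1 run and differ in depth, and in counts this sparse a weak r is no finding. Csn2 was most like Tkt, transketolase (r = 0.37), Aire (0.34), Retreg1 (0.33), Gm43569 (0.32) and Calcb, which encodes a calcitonin gene-related peptide (0.32). Csn1s2a was most like Csn2 (0.23) and Csn1s1 (0.21), then B630019A10Rik, Myh7 and Ms4a6b (0.20 to 0.21). For Csn1s1 the order was Gm13411 (0.26), 9130015A21Rik (0.25), Csn1s2a (0.21), Slc44a4 and Syce1l (0.20 each). For Csn3 the first 2 were its neighbours Odam (0.24) and BC037156 (0.22), followed by Fpr3, Entpd1 and Frat2 (0.19 to 0.20). Csn1s2b was most like Plscr2 (0.41), Gm7287 (0.40), Ms4a6b (0.35), Gm2479 (0.34) and 6330562C20Rik (0.32), values that rested on 2 to 4 shared cells.

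Other milk genes were low beside Csn2, and the usual casein regulators were present. Wap, whey acidic protein, stood in the Aire-stage class at 12.3 and 45.5 CPM with spermidine and 24.7 and 7.55 CPM with PBS. Lalba, the lactose synthase subunit, was at 1.33 CPM or less in each sample. Glycam1, a mucin-like milk protein, was at 10.7 and 10.2 CPM with spermidine and 4.55 and 1.29 CPM with PBS, and 17 of its 36 cells had a rarer casein, against 6.53 expected. Wap had 5 of 34 cells with a rarer casein against 6.14 expected. The highest of the other milk genes over the class, Spp1 (187 CPM), Muc1 (162), Lpo (135) and Trf (105), are also expressed in many tissues. Of the regulators, Stat5a was at 119 CPM and Stat5b at 104 CPM over the class, Cebpb at 112 CPM and the insulin receptor gene Insr at 99.2 CPM. Prlr, the prolactin receptor, was at 37.7 and 27.5 CPM with spermidine and 29.6 and 32.6 CPM with PBS. Elf5 was at 6.79 and 15.0 CPM with spermidine and 11.2 and 6.26 CPM with PBS.

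The study asked how spermidine changes RNA levels in mTECs. In the Aire-stage class no casein gene passed the test between spermidine and PBS. With counts summed per sample and fitted over all genes in edgeR's quasi-likelihood test with Benjamini-Hochberg adjustment, 0 of 18672 genes passed at 0.05 (0%), 1326 had an unadjusted p under 0.05, and DESeq2 called 83 (0.449%). Csn1s2a had the largest difference of the 5, 69.7 ± 1.10 CPM with spermidine and 30.3 ± 5.68 CPM with PBS (SD, n = 2 each). Its log2 fold change of spermidine over PBS was 1.21 (SE 0.15), with an edgeR unadjusted p of 5.71e-04 and an adjusted p of 0.603. DESeq2 gave it an adjusted p of 6.59e-04, and edgeR without the filter on low counts 0.00218, where it called 122 genes (0.34%), so the call depends on the method. Without PBS replicate 1 the class had 1 gene that passed in edgeR, B020031M17Rik (0.0049%), named after its value was seen. For Csn1s2a, under the assignment with 6 hashtags the log2 fold change was 0.63, and with each cell's count capped at 10 it was 0.78. Csn3 was at 0.47 (SE 0.28, adjusted p 0.820 in edgeR), Csn2 at 0.07 (SE 0.12, 0.956), Csn1s1 at -0.12 (SE 0.56, 0.985) and Csn1s2b at -0.17 (SE 0.44, 0.971). Single samples decided 3 of these signs. Csn1s1 was at 0.33 without spermidine replicate 1 and 0.69 without PBS replicate 1, Csn2 at -0.09 without spermidine replicate 1, and Csn1s2b at 0.18 without spermidine replicate 2.

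The makeup of the class differed between treatments beside this result. Cluster 1, which holds most Csn1s2a, made up 57.1% and 53.5% of the Aire-stage cells with spermidine and 41.0% and 41.3% with PBS. In cluster 1 alone the log2 fold change of Csn1s2a was 0.81, with an adjusted p of 0.836 in edgeR and 0.318 in DESeq2. With the 6-hashtag assignment it was 0.04 (SE 0.28) in cluster 1. In cluster 0 alone it was 1.48 (SE 0.62). Csn2 was at -0.14 in cluster 1 alone and Csn3 at -1.30 in cluster 0 alone, in both cases the reverse of the whole class. The 5 erythroid markers, genes of red cells, summed to 319 and 804 CPM with spermidine and 165 and 137 CPM with PBS in the class, 1 of the 5 over 2-fold higher than in other cells, and their part in the result was not tested. The 11 thymocyte markers summed to 127 and 111 CPM with spermidine and 92.2 and 108 CPM with PBS.

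The share of Aire-stage cells with a casein UMI was high with both treatments. At 5000 UMIs 87.1% and 85.6% of the cells had a UMI of any casein with spermidine, and 80.6% and 84.8% with PBS. The means were 86.4% ± 1.03 with spermidine and 82.7% ± 2.98 with PBS (SD, n = 2 each). In cluster 1 alone the order was turned, with a mean of 92.3% with spermidine and 95.6% with PBS. A Csn1s2a UMI was found in 5.35% and 5.35% of cells with spermidine and 4.22% and 2.11% with PBS, and an exact two-sided permutation test gave p = 0.333, the smallest that 2 samples against 2 allow. For Csn1s1 the mean shares were 3.51% with spermidine and 3.80% with PBS, for Csn3 2.84% with spermidine and 2.74% with PBS, and for Csn1s2b 1.17% with spermidine and 1.05% with PBS. These differences were within the spread between replicates.

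In the sum over all kept cells every casein was higher with spermidine, and none passed the test. In edgeR 0 of 22660 genes passed (0%), 4091 had an unadjusted p under 0.05, and DESeq2 called 814 (3.94%). Csn2 stood at 710 and 587 CPM with spermidine and 419 and 518 CPM with PBS, a log2 fold change of 0.51 (SE 0.15, edgeR adjusted p 0.196). Csn1s2a averaged 28.1 ± 3.01 CPM with spermidine and 8.66 ± 0.474 CPM with PBS (SD, n = 2 each), a log2 fold change of 1.74 (SE 0.13, edgeR adjusted p 0.120). Csn3 was at 1.36 (SE 0.37, edgeR adjusted p 0.184), Csn1s2b at 0.66 and Csn1s1 at 0.39, which was -0.10 without spermidine replicate 2. DESeq2 gave Csn1s2a, Csn2 and Csn3 adjusted p values of 8.26e-12, 0.0104 and 0.0489. The count of calls turned on single samples: without PBS replicate 2 edgeR called 762 genes (3.11%), Csn1s2a (adjusted p 0.0260) and Csn3 (0.0323) among them, and without spermidine replicate 1 it called 11 (0.0472%). With each cell capped at 10 UMIs of a gene it called 997 (4.41%), Csn1s2a (adjusted p 0.0205) and Csn2 (0.0318) among them. The median of the 5 was 0.66, and that of all genes tested 0.01. Aire-stage cells were 480 of 1374 and 331 of 1007 kept cells with spermidine, and 271 of 1335 and 276 of 993 with PBS, a share that the sort and the pooling can set. In these sums more cells of a type and more RNA per cell cannot be told apart.

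In microfold-like cells, in a fit added after the data were seen, Csn3 averaged 115 ± 12.8 CPM with spermidine and 25.1 ± 17.6 CPM with PBS (SD, n = 2 each). The log2 fold change was 2.22 (SE 0.40), with an edgeR adjusted p of 0.273 and a DESeq2 adjusted p of 0.0285. Cells with a Csn3 UMI numbered 8 of 65 and 4 of 44 with spermidine, and 2 of 67 and 5 of 58 with PBS. With each cell capped at 10 UMIs the log2 fold change fell to 1.28 (edgeR adjusted p 0.677). Without spermidine replicate 1, PBS replicate 1 or PBS replicate 2 the edgeR adjusted p was 0.0151, 0.0342 and 5.16e-04, so the call turns on which sample is used. Those 3 fits called 49 (0.5%), 36 (0.369%) and 51 genes (0.513%), and DESeq2 called 11 (0.188%). Csn2 was at 0.42 (SE 0.16, edgeR adjusted p 0.976). In this fit 1 of 8977 genes passed in edgeR (0.0111%), Clca3b, named after its value was seen, with a log2 fold change of 3.52.

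No gene of the 2 related lists passed edgeR's test in the Aire-stage class. Of 18 other milk genes 16 could be tested and 0 passed in edgeR, with 2 at an unadjusted p under 0.05, and DESeq2 called 1, Cidea, a lipid droplet protein. There were 5 higher and 11 lower with spermidine and a median log2 fold change of -0.22. Of 14 casein gene regulators all were tested and 0 passed in edgeR, with 0 at an unadjusted p under 0.05 and 0 called by DESeq2. There were 6 higher, 8 lower and a median of -0.04. The median of all genes tested was 0.00. Aire itself was at 0.16. Over all kept cells 10 of 16 milk genes and 9 of 14 regulators were higher with spermidine, each list with a median of 0.13, and 0 passed in either in edgeR, with 6 and 4 at an unadjusted p under 0.05. DESeq2 called 0 of the milk genes and 1 regulator, Stat5a.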

How the data were processed

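Gene expression and hashtag libraries of 1 pool were analysed, in which the labels list 4 hashed samples. Hashtags HT6 and HT7 have no listed sample and had 1187 and 1219 cells under the assignment with 6 hashtags. The deposited values are raw UMI counts for each barcode, of genes and of hashtags. The authors ran Cell Ranger 7.1.0 to make them, as the matrix header records, per the file headers. The build mm10, bcl2fastq and Seurat are named in the submitters' processing notes. Their annotation, cell filter and rule for multi-mapping reads are not given in the sources used here. Of 55487 gene identifiers, 54349 had the same version in GENCODE M21 (GRCm38), from which positions were taken.

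Barcodes were assigned with HTODemux of Seurat 5.3.0 (quantile 0.99) on HT2 to HT5. A cell was kept with 1000 or more UMIs, 500 or more genes and a mitochondrial share under 15%. Each limit alone excluded 589, 1712 and 3078 of 12139 barcodes. Of 8534 kept cells, 4709 were assigned, 1027 were hashtag doublets and 2798 negatives. Doublets were removed by hashtag only, with no RNA-based caller. Cells were clustered in scanpy 1.11.5 without the casein genes (2000 variable genes, 30 principal components, 15 neighbours, Leiden resolution 1, 17 clusters), and clusters were named from marker lists. Cluster 1 was placed in the Aire-stage class by hand.

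Counts were summed per sample and class and tested with edgeR 4.0.16 in R 4.3.3 (TMM, filterByExpr, adjusted p under 0.05), with DESeq2 1.42.0 as an alternative. The SE is the log2 fold change over the root of the F statistic. The printed CPM use gene UMI totals without TMM. For shares, cells were thinned to 5000 UMIs and shallower cells left out, 1222 of the 1358 Aire-stage cells remaining (449 and 299 with spermidine, 237 and 237 with PBS). Promoters came from a RefSeq table (GRCm38.p6), which held 3 of the 5 members. Scripts were tested on simulated data.

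The genes named are the 5 members, genes within 500 kb with at least 20 UMIs, the 5 genes most like each member, Aire, and from the lists of milk genes and regulators those that pass the test, that have the 4 highest levels or that define the list. The members and lists were chosen with earlier results of these data known. The alternatives were the other assignments, normalization, filters, thinning depths, clustering, capped counts, single clusters and left-out samples.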

Additional observations from a re-analysis of the deposited data

Results flagged for a closer look

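Aire-stage cells that were assigned to none of the 4 samples, being hashtag doublets or negatives, stand outside the comparisons above and also held Csn2. Of these 1141 cells, 88.6% had a Csn2 UMI without thinning, against 92.9% of the assigned Aire-stage cells and 18.7% of the assigned thymocyte-like cells. A count of 0 would have allowed 0.263%, which limits counting error only and is no background. Under the assignment with 6 hashtags, 2299 of the negative cells of all classes carried HT6 or HT7. The labels list no sample for these hashtags, so their treatment is unknown and they entered no comparison.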

How the results depend on the processing

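Leaving out a sample compares 1 sample with 2 and assumes that the lone sample varies like the others. The count of genes called in the Aire-stage class was 0, against 83 with DESeq2, 122 with no filter on low counts, 32 and 55 with DESeq2 in cluster 0 and cluster 1 alone, and 0 to 1 without a sample. Over all kept cells it was 0, against 814 with DESeq2, 2991 with no filter, 997 with capped counts and 0 to 762 without a sample. The replicate numbers do not pair the samples (the correlation of deviations was -0.0016 in the Aire-stage class), and with the replicate number as a block 0 genes were called in the class and 0 over all kept cells. Of 158 alternative values of casein fold changes, 129 had the same direction and call, 17 gained a call and 12 reversed. In the Aire-stage class the log2 values reversed to between -1.30 and -0.88 for Csn3 in cluster 0 alone (the second with 6 hashtags), to -0.14 for Csn2 in cluster 1 alone, and to 1.20 for Csn1s2b in cluster 0 alone with DESeq2, on 7 UMIs. Without a sample they ranged from -0.74 to 0.69 for Csn1s1 (0.33 and 0.69 without spermidine replicate 1 or PBS replicate 1), from -0.091 to 0.20 for Csn2 (lowest without spermidine replicate 1) and from -0.68 to 0.18 for Csn1s2b (highest without spermidine replicate 2). Over all kept cells Csn1s1 ranged from -0.10 (without spermidine replicate 2) to 0.79. Of 66 differences in the share of cells, 14 reversed. In percentage points, spermidine minus PBS, Csn1s2b was at -0.915 at 2000 UMIs, -0.0332 with 6 hashtags, -0.311 at 2 or more UMIs and -0.370 in cluster 1. Csn3 was at -0.540 at 2000 UMIs and -0.275 at 2 or more UMIs. In cluster 1 any casein was at -3.31 and Csn2 at -4.40. Without a sample Csn1s1 ranged from -1.79 to 1.22, Csn1s2b from -0.518 to 0.748 and Csn3 from -0.535 to 0.731, with reversed values of 0.557 for Csn1s1, -0.387 for Csn1s2b and -0.401 for Csn3 among them. The summed co-detection ratio of the rarer pairs, 3.51, was 4.42 at 2000 UMIs and 2.62 with the expected number taken within clusters, unthinned. It was 3.10 to 4.11 under the other assignments and clustering, 3.49 (4 joint detections) at 2 or more UMIs and 3.15 to 3.74 without a sample. The cause of these changes was not tested. With 2 samples a group and rarer caseins in 55 to 104 Aire-stage cells, depth limits what a difference in them can show.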
